A study of Mus musculus with 6 samples.

Results

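The 9 core genes of the Hedgehog pathway, its ligand, receptors, co-receptors and Gli transcription factors, were followed in RNA-seq of cultured mouse retinal ganglion cells (RGCs), the neurons whose axons form the optic nerve. They were Shh, Ptch1, Smo, Boc, Cdon, Gas1, Gli1, Gli2 and Gli3, chosen by name as the core of the pathway. These are 9 of 43346 Ensembl genes in the tables, and 6 of the 9 (Shh, Ptch1, Smo, Cdon, Gas1 and Gli3) passed a filter on low counts that left 15747 genes for testing.

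The study asked how Sox11, a transcription factor of the SoxC family, and a form of it that lacks a SUMO attachment site acted on RGCs. In all, 3 groups of 2 libraries each were sequenced: RGCs given a control AAV (label CONTROL), a Sox11 AAV (label SOX11_WT) or a Sox11 K91A AAV (label SOX11_MUTANT), in which lysine 91 is replaced by alanine. All cells were immunopanned on CD90.1 (Thy1), plated at 250000 cells per well in medium with forskolin, BDNF and CNTF, and given 1.5 µl of virus 4 h after plating, about 100000 vector genomes per cell, and RNA was taken 72 h after plating. The control AAV2 carried EGFP and no Sox11, the others Sox11 or Sox11 K91A followed by EGFP, so the control cells carried a vector and its reporter too. Below, virus and viruses stand for the Sox11 and Sox11 K91A AAVs only. The study used C57BL/6 mice, and no other genotype is given for the cultured cells. The age is given as embryonic day 18 for the RNA-seq cells, as postnatal day 2 in the general culture protocol and as postnatal day 0 in the names of the tables. Wells were plated in quadruplicate and the sequencing is described as 3 RNA samples in duplicate. Whether the 2 libraries of a group come from the same RNA or from separate cultures is not stated. The p-values measure the spread between these libraries, which need not be that between independent cultures.

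In Hedgehog signaling the ligand Shh binds Ptch1, a membrane protein that otherwise keeps Smo inactive, and released Smo leads through the primary cilium to the Gli factors. Gli2 mainly activates and Gli3 mainly represses target genes, and Gli1 and Ptch1 are themselves classical targets whose transcripts are read as a sign of pathway activity. Boc, Cdon and Gas1 bind Shh together with Ptch1. In the eye, RGCs make Shh, which acts on progenitors and on astrocytes of the optic nerve, and Boc on RGC axons takes part in guidance at the optic chiasm.

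The promoter sequences of Smo and Ptch1 are shown because Smo had the largest called difference among the 9 genes and Ptch1, the classical target, had none that passed the test. Both are the 250 bases before the annotated start in RefSeq, on build GRCm38.p6, printed 5′ to 3′ on the strand of the gene. The Smo sequence is chr6:29735247-29735496 on the plus strand, and the Ptch1 sequence is chr13:63565736-63565985 on the minus strand, inside the longer span of Ptch1 in GENCODE M21. Capitals mark CCACCC, which is the GLI core GGGTGG read on the opposite strand.
Smo: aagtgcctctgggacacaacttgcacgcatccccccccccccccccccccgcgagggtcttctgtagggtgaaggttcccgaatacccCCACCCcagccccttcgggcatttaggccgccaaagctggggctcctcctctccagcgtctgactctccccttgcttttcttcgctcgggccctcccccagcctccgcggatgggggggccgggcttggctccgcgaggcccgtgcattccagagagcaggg
Ptch1: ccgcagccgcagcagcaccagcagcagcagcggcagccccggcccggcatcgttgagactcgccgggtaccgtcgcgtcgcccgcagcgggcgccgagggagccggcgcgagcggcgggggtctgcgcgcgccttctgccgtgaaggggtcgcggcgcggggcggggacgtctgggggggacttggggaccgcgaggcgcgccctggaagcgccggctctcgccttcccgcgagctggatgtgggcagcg

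RefSeq windows were found for 6 of the 9 genes (Ptch1, Smo, Gli2, Gli3, Cdon and Gas1). The Cdon window, chr9:35451826-35452075, lies inside the longer span of Cdon in GENCODE M21, which starts at 35421128, and 31 of its bases are in Cdon exons. It therefore does not cover the first start of that gene. All 250 bases of the Gli3 and Gas1 windows lie in exons of other genes. On either strand, none of these 6 windows held the SOX cores ACAAAG or ACAATG, of which at least 1 is present in 25.2% of 32851 mouse promoter windows of the same length, and none held the GLI site TGGGTGGTC, present in 0.225%. The 6-base GLI core GGGTGG, which lies within that site, was in 3 of the 6 windows, those of Smo, Gli2 and Gli3, and in 28.1% of all windows. In Smo it lay 162 to 157 bases before the start. The Smo window was 68.4% and the Ptch1 window 78.4% GC, against a median of 52.4% over all windows. A match or its lack describes these letters in this window only.

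The libraries held 27521982 to 37061718 expected counts each. Sox11 transcripts were 234 and 332 CPM (counts scaled to library size) in the control libraries, 9178 and 14591 in the Sox11 libraries and 11971 and 7026 in the Sox11 K91A libraries, so the overexpressed gene went with the labels. Xist, which is transcribed from the inactive X chromosome in female cells, was lowest in control replicate 2 at 95.9 CPM and in Sox11 replicate 2 at 254 CPM, against 400.4 to 526 CPM in the other 4 libraries. Results on the 9 genes that rest on those libraries are given without them as well, and for the wider lists it is stated whether signs and calls were kept without them. The summed TPM (transcript abundance, which allows for gene length) of 10 RGC markers was 10110 to 10443 in control, 6477 to 8621 with Sox11 and 7575 to 8730 with Sox11 K91A. In control its largest terms were Nefl, Sncg, Stmn2 and Thy1. Mean TPM in control and with Sox11 was 4006 and 1993 for Nefl, 881 and 202 for Thy1 and 1757 and 2335 for Stmn2. For Rbpms it was 242 and 226, for Isl1 281 and 284 and for Pou4f2 66.6 and 68.8. By sign, 7 of the 10 were lower and 3 higher with each virus. The astrocyte marker Gfap was at 0 in every library, and summed TPM over 8 astrocyte markers was 2.39 to 6.68. Over 9 markers of retinal progenitors or Müller glia the sum was 79.9 to 94.7 in control and 215 to 257 with either virus, and most of it was Glul, which rose with both (log2 1.49 and 1.51, adjusted p = 0.0083 and 0.0094 from limma-voom). Only Glul was called among the 8 of these markers that were tested, and 4 of the 8 were higher and 4 lower with each virus. Summed TPM was 3.19 to 11.8 for fibroblast, 1.56 to 4.44 for endothelial, 0.54 to 3.88 for microglial and 19.4 to 30.4 for oligodendrocyte lineage markers, with Olig2 at 0. It was 68.5 to 88.3 for proliferation markers and 21.2 to 25.2 in control against 4.97 to 9.20 with either virus for photoreceptor markers. Amacrine markers set the low-Xist libraries apart as well, with 18.5 in control replicate 2 and 18.8 in Sox11 replicate 2 against 72.4 in control replicate 1 and 38.6 to 48.4 in the other 3. Among them, Gad1 in replicates 1 and 2 was 25.53 and 1.83 TPM in control and 12.08 and 1.58 TPM with Sox11. With Sox11 K91A it was 14.75 and 11.59 TPM. Replicates of control and of Sox11 thus differed in makeup, and whether they were separate cultures was not tested.

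**Figure D1:**
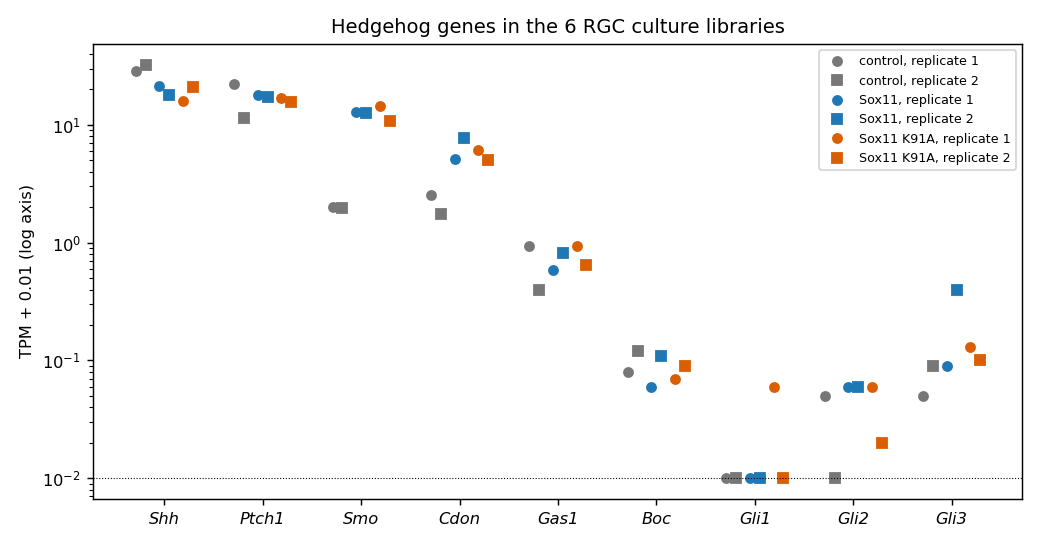
Level of the 9 Hedgehog genes in each library, as TPM + 0.01 on a log axis, with 1 point per library, colored by group and shaped by replicate, and a dotted line at a TPM of 0. Shh and Ptch1 lay at 11.39 TPM or above in every library, Smo at 1.95 and 2.00 TPM in control and 10.83 to 14.36 TPM in the others, and Boc, Gli1, Gli2 and Gli3 at 0.39 TPM or below.

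Levels can be compared between genes only per length, and in TPM the pathway was uneven at its ends. Ligand and receptor transcripts were present, and those of the Gli factors were close to absent. In control cells the order by mean TPM was Shh, Ptch1, Cdon, Smo, Gas1, Boc, Gli3, Gli2 and Gli1. Shh lay above Ptch1, Ptch1 above Cdon, Smo above Gas1 and Gas1 above Boc in both libraries, whereas the ranges of Cdon and Smo overlapped, as did those of each neighboring pair from Boc down. With Sox11, the order was Shh, Ptch1, Smo, Cdon and Gas1, then Gli3, Boc, Gli2 and Gli1. Here the ranges of Shh and Ptch1 overlapped and Smo lay above Cdon in both libraries. With Sox11 K91A the order was the same, again with overlapping ranges of Shh and Ptch1.

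The mean TPM of Smo was above that of 20.6% of the tested genes in control cells, 44.5% with Sox11 and 45.0% with Sox11 K91A. For Cdon the shares were 21.4%, 34.1% and 32.7%, and for Shh they were 64.4%, 53.1% and 52.6%. Ptch1 hardly moved in rank, at 51.2%, 50.5% and 50.0%.

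Against control, the calls were Smo and Cdon higher and Shh lower with Sox11, and Smo and Cdon higher with Sox11 K91A. A gene was called at an adjusted p below 0.05 from limma-voom over all 15747 genes and a fold change above 1.2. This gave 3 of the 6 tested members with Sox11, where 20.1% of all tested genes were called (9.96% higher and 10.2% lower). With Sox11 K91A it gave 2 of 6, where 10.6% of all genes were called (5.81% higher and 4.81% lower). The median log2 fold change of the 6 was 0.68 with Sox11 and 0.42 with Sox11 K91A, against 0.01 and 0.02 over all tested genes. With 6 genes these shares describe the list and single out nothing about it.

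**Figure D2:**
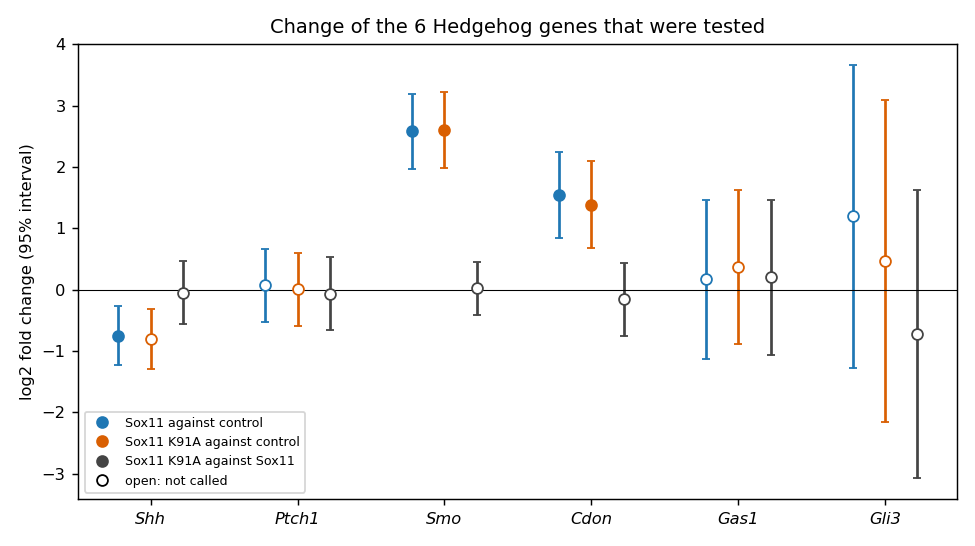
Log2 fold change of the 6 tested genes in each of 3 comparisons, with bars for the 95% interval from limma-voom and open points where the gene was not called. Smo and Cdon lay above 0 with both viruses, Shh lay below 0 with both and was called with Sox11, and all 6 intervals of Sox11 K91A against Sox11 included 0.

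Shh, the ligand gene on chromosome 5 (ENSMUSG00000002633, chr5:28456815-28467256, minus strand, GRCm38), was 28.83 and 32.42 TPM in the control libraries. It was 21.44 and 17.85 TPM with Sox11 and 15.97 and 21.05 TPM with Sox11 K91A. Both libraries of each Sox11 virus lay below both control libraries. In CPM it averaged 40.4 ± 5.84 (SD, n = 2) in control, 24.2 ± 3.34 with Sox11 and 23.5 ± 4.65 with Sox11 K91A. It fell with Sox11, by 0.75 on the log2 scale (SE 0.20, 95% interval -1.23 to -0.27, adjusted p = 0.0435 from limma-voom), a ratio to control of 0.594. With Sox11 K91A the log2 difference was -0.80 (SE 0.20, interval -1.29 to -0.32), a ratio of 0.573, with an adjusted p of 0.0515 from limma-voom, just past the threshold.

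The counts of other settings given from here on include the main fit without a fold change threshold, which keeps every main call by construction. The call on Shh was not stable. It was kept in 9 of 23 other settings with Sox11, and the gene was called in 5 of 23 with Sox11 K91A, although the sign was negative in all 23 for both. It was lost, for example, in edgeR's quasi-likelihood test (adjusted p = 0.0538), and without control replicate 2 the log2 difference with Sox11 was -0.60 (adjusted p = 0.116 from limma-voom). Without both control replicate 2 and Sox11 replicate 2 it was -0.44 (adjusted p = 0.214 from limma-voom). The call was also lost when any Sox11 or Sox11 K91A library was left out, with log2 differences of -0.90 without Sox11 replicate 1, -0.60 without Sox11 replicate 2, -0.75 without Sox11 K91A replicate 1 and -0.76 without Sox11 K91A replicate 2. Shh was the only one of the 9 whose expected counts were not whole in any library (649.59 to 1717.06), which RSEM gives where reads fit more than 1 place. Its exons share 446 bases, or 15.7% of them, with 9530036O11Rik and 361 bases with Gm26894, both on the opposite strand. RSEM assigned these genes at most 49 and 23.4 counts, which do not give the number of reads shared with Shh. The use of strand in the counting is not stated. Of the 10 RGC markers, 3 (Thy1, Nefl and Slc17a6) were called lower with Sox11 and 1 (Slc17a6) with Sox11 K91A, and 0 were called higher with either. Over all tested genes, 10.2% and 4.81% were called lower. By sign, 7 of the 10 markers were lower and 3 higher with each virus. In bulk libraries, fewer cells of a type and less RNA per cell cannot be told apart, and the part of RGC number in the level of Shh was not tested.

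Ptch1 (ENSMUSG00000021466, chr13:63508328-63573598, minus strand), the Shh receptor that holds Smo back, was 22.00 and 11.39 TPM in control. It was 17.91 and 17.07 TPM with Sox11 and 16.95 and 15.66 TPM with Sox11 K91A. All 4 Sox11 and Sox11 K91A libraries lay between the 2 control libraries, which were the farthest apart. The CPM was 59.3 ± 22.7 (SD, n = 2) in control, 59.7 ± 2.37 with Sox11 and 57.1 ± 3.96 with Sox11 K91A. The log2 difference from control was 0.07 with Sox11 (95% interval -0.53 to 0.67, adjusted p = 0.867) and 0.01 with Sox11 K91A (interval -0.59 to 0.60, adjusted p = 0.99), both from limma-voom. The intervals leave room for changes in either direction, and without control replicate 2 the values were -0.34 and -0.40. That library was also the control with fewer amacrine transcripts, 18.5 against 72.4 TPM. In Sox11 replicate 2 these were 18.8 TPM with Ptch1 at 17.07 TPM, and in Sox11 replicate 1 they were 40.3 TPM with Ptch1 at 17.91 TPM. The part of amacrine transcripts in the level of Ptch1 was not tested.

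Smo (ENSMUSG00000001761, chr6:29735503-29761365, plus strand), the seven-pass membrane protein that carries the signal inward, had the largest difference. It was 2.00 and 1.95 TPM in control, from 101 and 149 counts. It was 12.83 and 12.57 TPM with Sox11, from 630 and 735 counts, and 14.36 and 10.83 TPM with Sox11 K91A, from 842 and 579 counts. No Sox11 or Sox11 K91A library came near a control library. In CPM, Smo was 3.74 ± 0.178 (SD, n = 2) in control, 22.6 ± 0.536 with Sox11 and 23.0 ± 4.44 with Sox11 K91A. It rose 5.99-fold with Sox11 (95% interval 3.91 to 9.16, log2 2.58, SE 0.26, adjusted p = 0.0083 from limma-voom). With Sox11 K91A it rose 6.07-fold (3.97 to 9.29, log2 2.60, SE 0.26, adjusted p = 0.0110 from limma-voom).

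The rise of Smo with Sox11 was called in 22 of 23 other settings, and with Sox11 K91A in 20 of 23, with log2 fold changes between 2.18 and 2.79 throughout. It missed the threshold without Sox11 replicate 2 (log2 2.61, adjusted p = 0.0584), and with Sox11 K91A without control replicate 2 (log2 2.66, adjusted p = 0.0571) and without Sox11 K91A replicate 1 (log2 2.40, adjusted p = 0.0601), all from limma-voom. In those fits 0, 0 and 19 genes were called in all in the same comparison. Without both control replicate 2 and Sox11 replicate 2 it was called with either virus (log2 2.66 for both). Glul rose with both viruses as Smo did. Among the 8 tested markers of progenitors or Müller glia, Glul included, 4 were higher and 4 lower with each virus. Their median log2 fold change was -0.35 with Sox11 and -0.15 with Sox11 K91A. The part of progenitor or glial cells in the rise of Smo was not tested.

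The ratio of Smo to Ptch1 within a library needs no scaling between libraries. In TPM it was 0.0909 and 0.171 in control, 0.716 and 0.736 with Sox11 and 0.847 and 0.692 with Sox11 K91A. Ptch1 thus outnumbered Smo in every library, by far less with either virus. The ratio of Shh to Ptch1, by contrast, was 1.31 and 2.85 in control, and 0.942 to 1.34 in the other 4 libraries, so that control replicate 1 overlapped with them.

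Among the co-receptors, Cdon (ENSMUSG00000038119, chr9:35421128-35507652, plus strand), an immunoglobulin-superfamily protein, was 2.53 and 1.73 TPM in control. It was 5.07 and 7.77 TPM with Sox11 and 6.08 and 5.04 TPM with Sox11 K91A. All 4 libraries with either virus lay above both controls. The CPM was 7.90 ± 1.63 (SD, n = 2) in control, 22.8 ± 6.90 with Sox11 and 20.2 ± 2.75 with Sox11 K91A. Cdon rose 2.92-fold with Sox11 (log2 1.54, SE 0.30, 95% interval 0.84 to 2.25, adjusted p = 0.0195 from limma-voom) and 2.62-fold with Sox11 K91A (log2 1.39, SE 0.30, interval 0.68 to 2.10, adjusted p = 0.0357 from limma-voom).

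The calls on Cdon were kept in 18 of 23 other settings with Sox11 and 16 of 23 with Sox11 K91A. They were lost without control replicate 2, at log2 1.31 (adjusted p = 0.0760) and 1.16 (adjusted p = 0.127). The call with Sox11 was also lost without Sox11 replicate 2 (1.22, adjusted p = 0.106), and that with Sox11 K91A without its replicate 1 (1.25, adjusted p = 0.294) or 2 (1.52, adjusted p = 0.0849), all from limma-voom. Without both low-Xist libraries, Cdon was called with Sox11 K91A (1.16, adjusted p = 0.0186) and not with Sox11 (0.98, adjusted p = 0.0573), again from limma-voom.

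Gas1 (ENSMUSG00000052957, chr13:60174405-60177365, minus strand), a membrane-anchored co-receptor, stayed below 1 TPM. It was 0.92 and 0.39 TPM in control, 0.58 and 0.80 with Sox11 and 0.93 and 0.63 with Sox11 K91A, from 22 to 42 counts per library, and all groups overlapped. The log2 differences were 0.17 (95% interval -1.13 to 1.46, adjusted p = 0.852) and 0.37 (-0.89 to 1.63, adjusted p = 0.691) from limma-voom, so a change of over 2-fold in either direction was within the interval with Sox11. Its exon shares 589 bases, 19.9% of its length, with Gm48488 on the opposite strand.

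Boc (ENSMUSG00000022687, chr16:44485049-44558897, minus strand), the co-receptor known from ipsilateral RGC axons, was at the limit of detection. It held 4 and 10 counts in control, 3 and 7 with Sox11 and 4 and 5 with Sox11 K91A, 0.05 to 0.11 TPM, and was not tested. The transcription factor Zic2, which marks ipsilaterally projecting RGCs, was 1.22 to 2.72 TPM. By limma-voom, 0 of 7 genes of RGC laterality (Zic2, Ephb1, Slc6a4, Isl2, Pou4f1, Nrcam and Plxna1) were called with either virus. Over all tested genes, 20.1% were called with Sox11 and 10.6% with Sox11 K91A. By sign, 5 of the 7 were higher with Sox11 (median log2 0.47) and 6 with Sox11 K91A (median log2 0.42). Of the summed TPM of the 3 co-receptors (2.23 and 3.52 in control, 5.70 to 8.67 with either virus), Cdon made up 71.9% and 77.6% in control, 88.9% and 89.6% with Sox11 and 86.0% and 87.7% with Sox11 K91A.

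The Gli factors, the transcriptional end of the pathway, were barely detected. Gli1 (ENSMUSG00000025407, chr10:127329882-127341974, minus strand) had 0 counts in 5 libraries and 3 counts in Sox11 K91A replicate 1. A count of 0 allows up to 3 counts, which for Gli1 is 0.0406 to 0.0631 TPM, so a level below this was not detectable at this depth, and intervals of this kind cover counting error only. Gli2 (ENSMUSG00000048402, chr1:118834132-119053619, minus strand) had 0 to 5 counts per library, 19 in all. Neither was tested.

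Gli3 (ENSMUSG00000021318, chr13:15463235-15730026, plus strand) had 5 and 14 counts in control, 6 and 51 with Sox11 and 16 and 8 with Sox11 K91A. Sox11 replicate 2 held 51 of its 100 counts, at 0.39 TPM against 0.04 to 0.12 TPM elsewhere. The log2 difference from control was 1.195 with Sox11 (SE 1.04, 95% interval -1.28 to 3.67, adjusted p = 0.439) and 0.47 with Sox11 K91A (SE 1.11, interval -2.15 to 3.10, adjusted p = 0.817), from limma-voom. Without Sox11 replicate 2 the first was -0.25. That library also had the highest summed TPM of 6 fibroblast markers, 11.8 against 3.19 to 6.09 in the others, and the part of other cells in its Gli3 counts was not tested. The summed TPM of the 3 Gli genes was 0.44 in that library and 0.08 to 0.22 in the other 5.

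**Figure D3:**
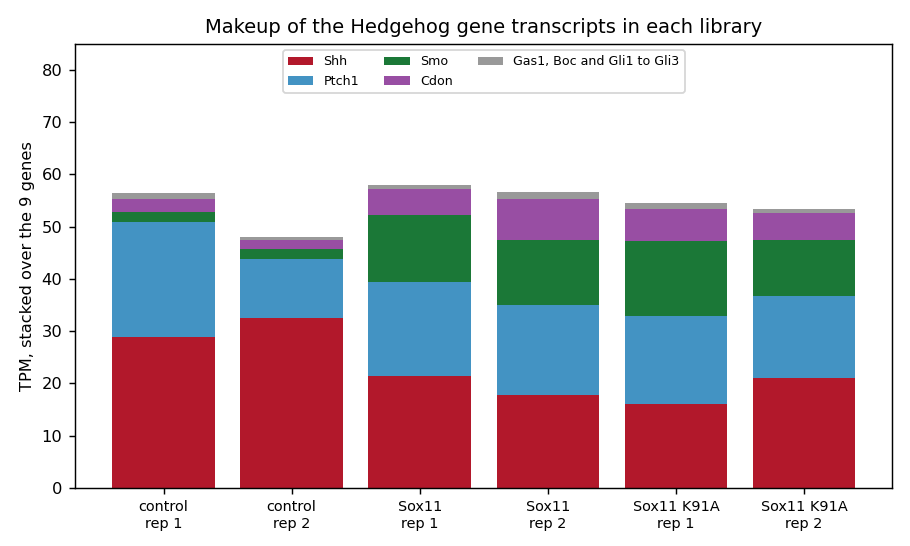
TPM of the 9 genes stacked for each library, with Shh, Ptch1, Smo and Cdon in color and the other 5 genes in gray. The total stayed between 48.1 and 58.0 TPM while the share of Smo went from 3.54% and 4.06% in control to between 20.3% and 26.3% in the other 4 libraries.

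The 9 genes changed in makeup more than in total. Their summed TPM was 56.4 and 48.1 in control, 58.0 and 56.6 with Sox11 and 54.6 and 53.4 with Sox11 K91A, so that control replicate 1 overlapped with the virus libraries. Shh made up 51.1% and 67.4% of it in control, 37.0% and 31.5% with Sox11 and 29.3% and 39.4% with Sox11 K91A. Ptch1 made up 39.0% and 23.7% in control and 29.3% to 31.1% in the other libraries.

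Sox11 K91A was also compared with Sox11 itself. By limma-voom, 0 of 6 members and 0% of the 15747 genes were called, with 108 genes at an unadjusted p below 0.05, and DESeq2 called 2 genes. The ratio of Sox11 K91A to Sox11 had a 95% interval of 0.753 to 1.37 for Smo, 0.593 to 1.36 for Cdon, 0.678 to 1.37 for Shh and 0.632 to 1.45 for Ptch1. The CPM of the Sox11 and Sox11 K91A libraries overlapped for all 6 tested genes. The share of all 15747 genes that overlapped in this way was not counted, so this singles out nothing about the 6. Differences within these intervals were not detectable with 2 libraries a group, and the values do not show that the viruses acted alike. The comparisons of each virus with control share the same 2 control libraries.

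Beyond the 9 genes, a list of 28 other genes of the pathway, of which 27 were tested, had 10 called with Sox11 (7 higher and 3 lower) and 6 with Sox11 K91A (5 higher and 1 lower), all 6 of them also called with Sox11. Over all tested genes the shares called were 20.1% and 10.6%. The median log2 fold change of the list was 0.34 and 0.32, against 0.01 and 0.02 over all genes. Of the ligand release genes, Scube1, a secreted carrier of Shh, was 0.85 and 0.63 TPM in control, 6.42 and 8.86 with Sox11 and 9.36 and 4.71 with Sox11 K91A, and rose by log2 3.57 (SE 0.55, adjusted p = 0.0134) and 3.36 (SE 0.56, adjusted p = 0.0217), from limma-voom. Its relative Scube3 rose by log2 1.40 and 1.66. Without control replicate 2 neither was called with Sox11, at log2 3.41 for Scube1 (adjusted p = 0.0677) and 1.19 for Scube3 (adjusted p = 0.0713), from limma-voom. Dhh, the desert hedgehog ligand, stayed at or below 0.81 TPM. It rose with Sox11 (log2 3.04, adjusted p = 0.0423 from limma-voom), a call kept in 10 of 22 other settings, and Ihh had at most 3 counts.

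Lrp2, an endocytic receptor that can bind Shh, rose with Sox11 (log2 2.14, adjusted p = 0.0385 from limma-voom) and had nearly the same value with Sox11 K91A, 2.12, at an adjusted p of 0.0545. Without control replicate 2 it was 1.60 and 1.58 and was not called (adjusted p = 0.156 and 0.199 from limma-voom).

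Among the regulators of Gli proteins, Gpr161, a ciliary receptor that restrains the pathway, was 23.06 and 17.73 TPM in control, 53.19 and 66.56 with Sox11 and 61.10 and 50.57 with Sox11 K91A. It rose by log2 1.46 and 1.41 (adjusted p = 0.0113 and 0.0147 from limma-voom). Kif7, the ciliary kinesin that organizes Gli proteins, rose by log2 2.16 and 2.33 from 1.08 and 0.74 TPM in control, and Stk36, the Fused kinase, by 0.83 and 0.67. Grk2, a kinase that acts on Smo and Gpr161, fell by 0.78 and 0.64 on the log2 scale. Prkaca, the catalytic subunit of protein kinase A, and Arrb2, an arrestin, fell with Sox11 by 0.70 and 0.69, and their values with Sox11 K91A, -0.56 and -0.59, did not pass the test. Sufu, the main inhibitor of Gli proteins, had log2 differences of 0.58 with each virus and was not called. Of the calls with Sox11 K91A, those on Stk36 and Grk2 were kept in 11 and 9 of 23 other settings. Without Sox11 replicate 2 no gene at all was called with Sox11, and without control replicate 2 or Sox11 K91A replicate 1 the number of other pathway genes called with both viruses was 0 of 27.

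**Figure D4:**
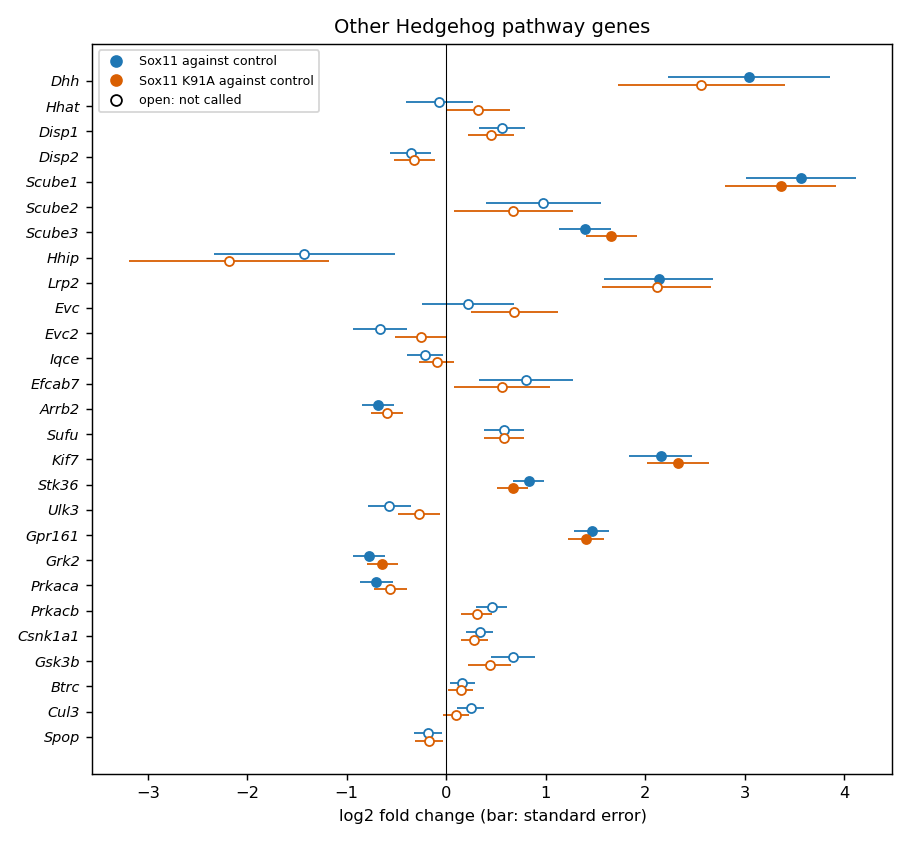
Log2 fold change against control of the 27 tested genes of the wider Hedgehog list, ordered by role from ligands to Gli regulation, with bars for the standard error and open points where the gene was not called. Scube1, Scube3, Kif7, Stk36 and Gpr161 were called higher and Grk2 lower with both viruses.

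Of 11 textbook Hedgehog response genes, 7 were tested and 2 were called, both higher and with both viruses, where 9.96% of all tested genes were called higher with Sox11 and 5.81% with Sox11 K91A. They were Mycn, a growth-promoting transcription factor (log2 0.62 and 0.63), and Bcl2, an inhibitor of cell death (1.38 and 1.17). The calls on Mycn were kept in 14 and 11 of 23 other settings and those on Bcl2 in 20 and 15. Without control replicate 2 neither was called, at 0.57 and 0.58 for Mycn and 1.35 and 1.14 for Bcl2. Hhip, which binds and sequesters the ligand and like Ptch1 is a direct target, was 1.42 TPM in control replicate 2 and 0.04 to 0.30 TPM in the other 5 libraries, with log2 differences of -1.43 and -2.19 that did not pass the test. Ccnd1, Ccnd2, Sfrp1 and Snai2 were not called, and Foxa2 had 0 counts throughout. Of 12 genes of primary cilium transport, all tested, only Arl13b, a small GTPase of the ciliary membrane, was called with either virus, at log2 1.51 and 1.33 higher (adjusted p = 0.0135 and 0.0251 from limma-voom), where 20.1% and 10.6% of all tested genes were called.

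The genes of these 3 lists called with either virus, 13 with Sox11 and 9 with Sox11 K91A, kept their sign without control replicate 2, without Sox11 replicate 2 and without both. Calls with Sox11 were lost in each of these fits, and calls with Sox11 K91A were lost without either library alone. Such fits leave 1 library in a group, and the number of calls over all genes moved with them as well. Without control replicate 2, the Gli regulators called with Sox11 K91A had log2 differences of 1.29 (Gpr161), 2.11 (Kif7), 0.54 (Stk36) and -0.77 (Grk2). With all 6 libraries these were 1.41, 2.33, 0.67 and -0.64.

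**Figure D5:**
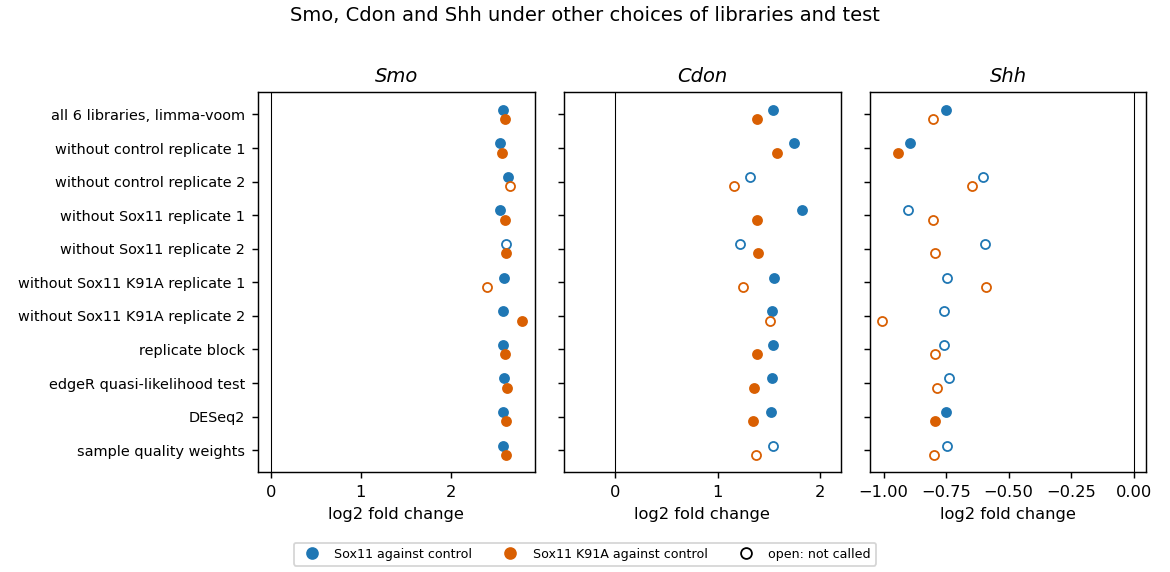
Log2 fold change against control of Smo, Cdon and Shh in all 6 libraries, with each library left out in turn, with a replicate block and with 3 other tests, filled where the gene was called. Smo stayed between 2.40 and 2.79, Cdon between 1.16 and 1.82 and Shh between -1.01 and -0.59 in the settings drawn, and calls were lost in single settings for each gene.

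Genes with the likest profile were sought among 13377 genes with a mean of at least 1 CPM, by Pearson's r of log2 CPM over the 6 libraries, as a description. Closest to Smo were L3hypdh (r = 0.9995), Edaradd (0.9992) and Arhgap28 (0.9992). Closest to Cdon were Kdm3a (0.9989), Yeats2 (0.9987) and Fam168b (0.9985), and closest to Shh were Vwc2 (0.9992), Calca (0.9982) and Ensa (0.9982). With 3 groups of 2 libraries many genes share such a profile, and 909 genes had an r above 0.95 with Smo, 1296 with Cdon and 587 with Shh.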

How the data were processed

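RNA-seq of cultured RGCs was done for 3 groups of 2 libraries. The authors aligned reads to mm10 with STAR, and counted them with RSEM, and their deposited tables give, per gene, an expected count (not normalized), TPM (scaled by the authors to equal totals) and effective length. Versions of these tools and the use of strand are not given in the sources used here. Of 69690 entries, 43346 were Ensembl genes, of which 42462 were named from GENCODE M21 (GRCm38). The numbered and other entries were left out.

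Expected counts were rounded to whole numbers, filtered with filterByExpr, scaled by TMM (factors 0.985 to 1.04) and fitted with limma-voom (limma 3.58.1, edgeR 4.0.16, R 4.3.3), all 6 libraries in a single fit without covariates, after a test on simulated data. Two-sided p-values were Benjamini-Hochberg adjusted over 15747 genes. A call needed an adjusted p under 0.05 and a fold change above 1.2. TPM and CPM per library are given beside them. Alternatives included edgeR's quasi-likelihood test, DESeq2 (1.42.0), limma on log2(TPM + 1) and log2(TPM + 0.1), other scalings and filters, blocks, and leaving out libraries.

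The 9 members and the lists were chosen with earlier results of these data known. All members are named. An item of the lists is not reported here. Of other lists, genes called against control, or those with the highest TPM, are named, and, for each member called, the 3 genes with the most similar profile. Genes described as not called, at 0 counts or at few counts were in part chosen after their values were seen.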

Additional observations from a re-analysis of the deposited data

How the results depend on the processing

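The 6 tested genes were refitted under 23 alternatives (22 for Gli3), 20 planned and 3 chosen after seeing the data (a replicate block with the Sox11 K91A numbers exchanged, and a block for, or removal of, the 2 libraries with the lowest Xist). The log2 fold changes of Smo, Cdon and Shh against control kept their sign in all 23. Other scalings moved the median of all genes by less than 0.1. The number of members called with Sox11 (3) was 1 with sample quality weights, 1 with a block for control replicate 2, 1 with both low-Xist libraries left out, and 0 to 3 when single libraries were left out. With Sox11 K91A (2) it was 1 with quality weights and with either TPM pseudocount, 0 with the block for control replicate 2 and 0 to 3 with single libraries left out. The other pathway genes called with both viruses (6) were 2 with quality weights, 3 with either TPM pseudocount, 0 with the block for control replicate 2 and 0 to 6 with single libraries left out. Over all genes, the calls with Sox11 (3171) numbered 979 with quality weights, 2107 on log2(TPM + 0.1), 1598 with only the 2 groups compared, 1750 with the block for control replicate 2, 2094 with both low-Xist libraries left out and 0 to 3753 with single libraries left out (0 without Sox11 replicate 2). With Sox11 K91A (1672) they numbered 3144 in DESeq2, 936 on log2(TPM + 1), 896 on log2(TPM + 0.1), 0 with the block for control replicate 2, 2753 with the exchanged block, 2894 with the block for both low-Xist libraries, 4108 with both left out and 0 to 2563 with single libraries left out (0 without control replicate 2, 19 without Sox11 K91A replicate 1). Between the viruses DESeq2 called 2 genes. The cause of these shifts was not tested. Fits without a library leave a group with 1 library, which is assumed to vary like the others.

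Signs turned only for values that were never called. Ptch1 with Sox11 K91A was -0.053 in edgeR's test, -0.066 in DESeq2, -0.012 with quality weights, -0.0042 with DESeq2 size factors, -0.021 with library size only, -0.0021 with the replicate block, -0.40 with the block for control replicate 2, -0.22 with the block for both low-Xist libraries, -0.40 with both left out and -0.40 to 0.41 with single libraries left out. Ptch1 with Sox11 was -0.0022 in DESeq2, -0.34 with the block for control replicate 2, -0.29 with both low-Xist libraries left out and -0.34 to 0.47 with single libraries left out. Gas1 was -0.44 and -0.24 (Sox11 and Sox11 K91A) with the block for control replicate 2, -0.67 and -0.24 with both left out, and -0.44 to 0.66 and -0.24 to 0.86 with single libraries left out. Gli3 with Sox11 was -0.25 to 2.45 with single libraries left out. For Sox11 K91A against Sox11, Smo was -0.023 on log2(TPM + 1), -0.026 on log2(TPM + 0.1) and -0.0030 with both low-Xist libraries left out, Gli3 was 0.22 with the block for both and 0.72 with both left out, and Cdon was 0.17 with both left out. With single libraries left out, these differences ranged from -0.18 to 0.22 for Smo, -0.25 to 0.16 for Shh, -1.98 to 0.72 for Gli3, -0.44 to 0.17 for Cdon, -0.078 to 0.46 for Gas1 and -0.13 to 0.0084 for Ptch1.

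Replicate numbers are shared between groups, and deviations of same-numbered libraries correlated at 0.26 (control and Sox11), -0.04 (control and Sox11 K91A) and -0.28 (Sox11 and Sox11 K91A). Whether libraries of different groups share an origin, under the same or other numbers, was not tested. With the replicate block, 2679, 1402 and 0 genes were called in the 3 comparisons and 2 members with either virus, Smo and Cdon, and Shh with Sox11 was -0.76 (adjusted p = 0.0539 from limma-voom). With the Sox11 K91A numbers exchanged, 4076, 2753 and 0 genes and 3 members with either virus were called. Gli3 could not be given with a minimum of 10 counts in every library, where it was filtered out. Depth limited Gli1, Gli2 and Boc, which were not tested.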
